A study of Mus musculus with 18 samples.

Results

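The mitochondrial carriers described here are the Slc25a genes, taken as every gene of the table whose symbol is Slc25a followed by a number alone. They numbered 39 of the 12547 genes, and all 39 identifiers matched their symbols in a separate name table. By the substrate their protein is known to carry, 6 belonged to the adenine nucleotide and phosphate carriers, 9 to carriers of other nucleotides and cofactors, 4 to carboxylate and acylcarnitine carriers, 8 to amino acid carriers, 4 to iron and glutathione carriers and 3 to relatives of the uncoupling proteins. The other 5 (Slc25a35, Slc25a45, Slc25a46, Slc25a47 and Slc25a53) were kept as a group of other or unassigned substrates. No filter on low values was applied in the main analysis, so all 39 members were tested.

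The samples were 18 RNA-seq libraries of mouse CD4 T cells in 6 groups of 3, made from cells lacking Id3 (KO) and from wild-type cells (WT). All groups began as naive cells activated on beads against CD3 and CD28 and cultured in IL2 and IL12 while IL4 was neutralised, conditions that favour Th1 cells, the helper cells that make interferon gamma. Each genotype was sampled in sets that the labels number 3, 5 and 6. What those numbers stand for is not stated; in the authors' deposited table the contrast names carry 24 for set 3 and 96 for sets 5 and 6, with no unit given. The labels give no strain, age or Id3 allele. Nothing says that replicates are separate cultures or animals, so the p-values describe only the spread among these libraries. In bulk RNA, fewer cells of a type and less RNA per cell cannot be told apart.

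Carriers of this family sit mostly in the inner mitochondrial membrane, which metabolites do not cross on their own. Each exchanges or imports a particular substrate: ADP against ATP, phosphate, citrate, aspartate and glutamate, carnitine esters of fatty acids, iron, or the nucleotides from which mitochondrial DNA is copied. An activated T cell builds mitochondria as it grows, so these carriers link its cytosolic synthesis of lipids, nucleotides and amino acids to respiration. Id3, which the KO cells lack, has no DNA-binding region of its own; it pairs with E proteins, and a paired E protein no longer binds its DNA site, the E-box CANNTG.

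The promoters of 3 members are shown because the results turn on them. Slc25a36 had the largest rise in KO cells of sets 5 and 6. Slc25a20 had a smaller rise, of nearly equal size in set 5 and in set 6. Slc25a1 was the 1 member that fell in set 5 on both scales used below. The 250 bases before the annotated start are given 5′ to 3′ on the gene's own strand, from RefSeq on GRCm38.p6, with each match to CANNTG in capitals.
Slc25a36: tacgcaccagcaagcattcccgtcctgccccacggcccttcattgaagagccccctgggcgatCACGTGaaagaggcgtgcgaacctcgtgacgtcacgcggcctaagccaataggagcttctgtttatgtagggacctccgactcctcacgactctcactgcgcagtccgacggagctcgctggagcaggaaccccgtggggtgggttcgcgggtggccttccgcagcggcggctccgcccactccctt
Slc25a20: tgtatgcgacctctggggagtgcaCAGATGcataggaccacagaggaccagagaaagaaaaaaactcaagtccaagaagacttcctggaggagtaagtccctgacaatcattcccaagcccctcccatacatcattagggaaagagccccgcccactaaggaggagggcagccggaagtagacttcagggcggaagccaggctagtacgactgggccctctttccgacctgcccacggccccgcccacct
Slc25a1: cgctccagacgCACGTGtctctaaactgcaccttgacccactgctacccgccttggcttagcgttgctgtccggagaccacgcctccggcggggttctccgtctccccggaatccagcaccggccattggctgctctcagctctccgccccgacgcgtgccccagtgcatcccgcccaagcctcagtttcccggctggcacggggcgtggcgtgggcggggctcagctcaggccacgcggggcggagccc
These windows lie at chr9:97111042-97111291 (minus strand), chr9:108661886-108662135 (plus strand) and chr16:17928220-17928469 (minus strand). Each held 1 match: CACGTG 187 bases before the start of Slc25a36, CAGATG 226 bases before that of Slc25a20 and CACGTG 239 bases before that of Slc25a1. RefSeq promoters were found for 29 of the 39 members, 38 promoters in all. CANNTG reads the same on both strands and stood in 68.4% of the 38, beside 66.2% of 32851 promoters of the same length. Its variant CACGTG stood in 18.4% of the members' promoters and 6.02% of all, CAGCTG in 7.89% and 13.0%, and CACCTG (or CAGGTG, its other strand) in 10.5% and 17.2%. Among the 7 member promoters with CACGTG, overlapping windows of Slc25a14 held the same match, so fewer than 7 members carried it. A match describes letters in this window and is not evidence of binding by E proteins or any other protein.

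Values are on the log2 scale on which the authors deposited them, where a difference of 1 is a doubling, and the depth of each library is unknown. The median over all genes was 9.21, 9.18 and 9.25 in WT and 9.18, 9.57 and 9.66 in KO libraries of sets 3, 5 and 6. Differences are therefore given first after subtracting each library's median (centred), and the difference as deposited, higher by 0.39 in set 5 and by 0.41 in set 6 and lower by 0.03 in set 3, is set beside it. Id3 lay between 1.0 and 5.63 in KO and between 8.85 and 10.08 in WT libraries. Marker sums are of values as deposited, so in sets 5 and 6 their KO-WT differences include the 0.39 and 0.41. The 4 measured T cell markers (Cd3d, Cd3e, Cd3g, Cd4) summed to 14.06 to 14.21 in KO and 14.41 to 14.54 in WT libraries of set 3. They summed to 15.76 to 15.89 and 15.33 to 15.45 in set 5, and to 15.96 to 16.05 and 15.48 to 15.70 in set 6. The lowest KO and highest WT sums lay less than 0.39 apart in set 5 and less than 0.41 apart in set 6. The medians were 15.78 in KO and 15.36 in WT libraries of set 5, and 15.97 and 15.59 in set 6. Markers of other cells also differed between groups. The 4 measured erythroid genes (all haemoglobins) summed to 11.6 to 13.8 in KO and 8.18 to 9.25 in WT libraries of set 3, and to 4.20 to 7.08 in the other groups. The 5 measured B cell genes summed to 7.74 to 10.7 in KO and 5.81 to 7.13 in WT libraries of set 3, to 6.81 to 7.02 and 5.43 to 5.73 in set 5, and to 6.30 to 7.10 and 4.78 to 5.86 in set 6. In set 3 the 4 mast cell and basophil genes summed to 8.46 to 8.80 in KO and 3.60 to 5.41 in WT libraries, and the 2 measured dendritic cell genes (Itgax, Zbtb46) to 6.27 to 6.95 and 4.73 to 5.75, overlapping in sets 5 and 6. The 4 NK cell genes summed to 8.83 to 9.23 in KO and 7.96 to 8.33 in WT libraries of set 3 and to 5.84 to 7.34 and 3.10 to 5.44 in set 5, and overlapped in set 6. Cd8a and Cd8b1 summed to 8.62 to 9.05 in KO and 7.78 to 8.58 in WT libraries of set 5, with medians of 8.83 and 8.31. There the lowest KO and highest WT sums lay less than 0.39 apart. In sets 3 and 6 the Cd8a and Cd8b1 sums of KO and WT libraries overlapped. The 3 measured macrophage genes (Lyz2, Cd68, Adgre1) summed to 6.98 to 7.55 in KO and 6.04 to 6.52 in WT libraries of set 3, to 9.33 to 9.81 and 7.16 to 7.59 in set 5, and to 10.3 to 10.5 and 8.40 to 9.33 in set 6. The part of these genes in the results below was not tested. Of the 13 mitochondrially encoded genes, none passed in set 3 on centred values, beside 10.6% of all genes. On that scale 3 were lower in KO cells of set 5 and 6 in set 6, beside 24.7% and 18.5% of all genes. As deposited the 13 summed to 20.97 to 21.04 in KO and 20.64 to 20.71 in WT libraries of set 5. Their sums overlapped in sets 3 and 6.

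Most members differed between set 3 and the later-numbered sets, at about the share of all genes. In WT cells 28 of the 39 members differed between the mean of sets 5 and 6 and set 3, 8 higher and 20 lower (71.8%, beside 71.6% of all genes by limma with Benjamini-Hochberg adjusted p under 0.05, 32.6% higher and 39.0% lower). In KO cells 31 differed, 11 higher and 20 lower (79.5%, beside 74.7% of all genes, 37.5% higher and 37.3% lower). As deposited the WT counts were the same (71.6% of all genes, 32.8% higher and 38.8% lower), and the KO counts were 19 higher and 12 lower (76.2%, 53.8% higher and 22.5% lower). The median member differed by -0.35 in WT and -0.31 in KO cells, where the median of all genes differed by -0.09 and 0.00. Slc25a11, Slc25a24, Slc25a25 and Slc25a45 rose in both genotypes on both scales. On centred values 16 members fell in both, 12 of them also as deposited, where Slc25a51 turned in KO cells (0.04). Most of the nucleotide and cofactor carriers were among these. Of the 9, 7 fell in WT cells on both scales, and in KO cells 8 fell on centred values and 4 as deposited, where 2 rose.

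**Figure D1:**
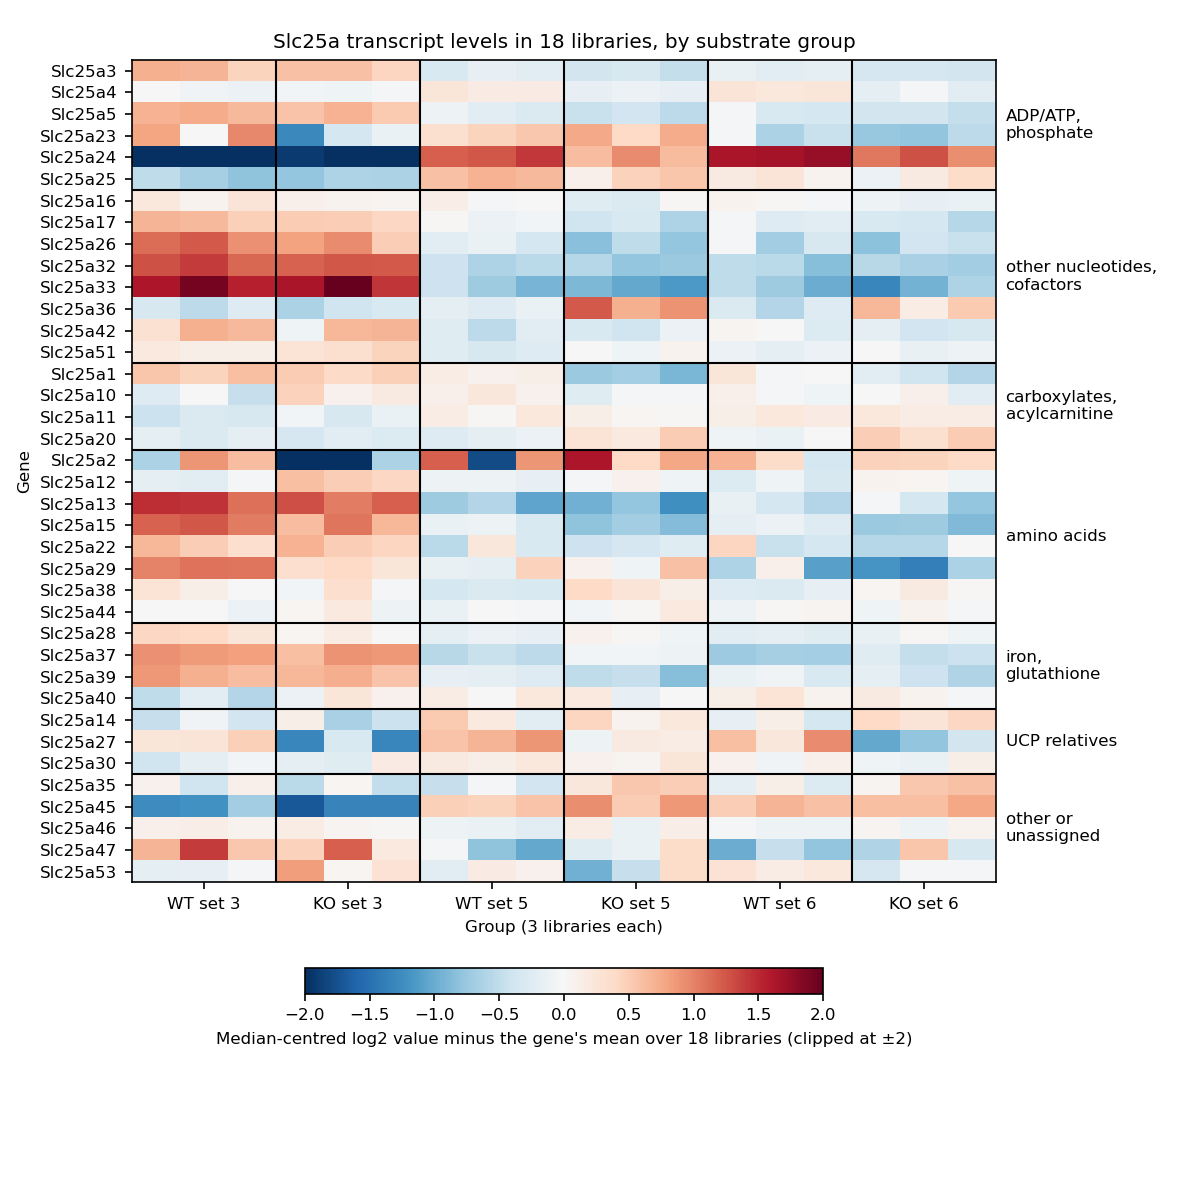
Each row is 1 of 38 Slc25a genes and each column 1 of 18 libraries; colour gives the median-centred log2 value minus the gene's mean over all libraries, clipped at 2 in either direction. Slc25a24 is low in all 6 libraries of set 3, Slc25a33, Slc25a32 and Slc25a13 are high there, and Slc25a36 is higher in KO than in WT libraries of sets 5 and 6.

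KO-WT differences passed in few carriers in set 3 and in more in sets 5 and 6, as among all genes. On centred values the members' share lay above that of all genes in set 3 and below it in sets 5 and 6. That order changed with the setting. With the 6 libraries of set 3 alone in the model 1 of the 39 members passed, beside 2.92% of all genes. As deposited 24 of the 39 passed in set 6, beside 58.5%. In set 3, 6 members passed the test, 3 higher and 3 lower (15.4%, beside 10.6% of all genes, 7.29% higher and 3.28% lower). In set 5, 15 passed, 7 higher and 8 lower (38.5%, beside 49.6% of all genes, 24.9% higher and 24.7% lower), and in set 6, 11 passed, 6 higher and 5 lower (28.2%, beside 37.2%, 18.8% higher and 18.5% lower). As deposited, 3 were higher and 5 lower in set 3 (11.4% of all genes called, 6.92% higher and 4.46% lower). The deposited counts were 16 and 1 in set 5 (58.2%, 50.1% higher and 8.08% lower), and 23 and 1 in set 6 (58.5%, 53.9% higher and 4.59% lower). The median member differed by -0.07, -0.07 and -0.03 on centred values in the 3 sets, and the median of all genes by -0.04, 0.00 and 0.00. Called in the same direction on both scales were 7 rises (Slc25a20, Slc25a35, Slc25a36, Slc25a37, Slc25a38, Slc25a46, Slc25a51) and the fall of Slc25a1 in set 5, and 6 rises (among them Slc25a12, Slc25a20, Slc25a36, Slc25a37 and Slc25a38) and the fall of Slc25a27 in set 6.

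Slc25a20, Slc25a36, Slc25a37 and Slc25a38 rose in both later-numbered sets, and Slc25a1, Slc25a4, Slc25a15 and Slc25a24 fell in both on centred values. Slc25a12 rose in sets 3 and 6 and Slc25a27 fell in sets 3 and 6. No member passed in the same direction in all 3 sets, none passed in opposite directions, and 17 passed in none. Among the 39, KO and WT libraries did not overlap for 5 higher and 6 lower members in set 3 (28.1% of all genes did not overlap), 8 and 12 in set 5 (59.4%) and 8 and 10 in set 6 (51.3%), on centred values. As deposited these were 5 and 7 (29.9%), 20 and 2 (64.0%) and 23 and 2 (65.1%). Testing against a minimum fold of 1.2 left Slc25a12 and Slc25a27 in set 3 (4.09% of all genes), Slc25a36, Slc25a38, Slc25a20, Slc25a1 and Slc25a15 in set 5 (24.3%), and Slc25a36, Slc25a20, Slc25a27 and Slc25a15 in set 6 (14.1%). With the 6 libraries of set 3 alone in the model, Slc25a12 was the 1 member that passed there (2.92% of all genes).

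**Figure D2:**
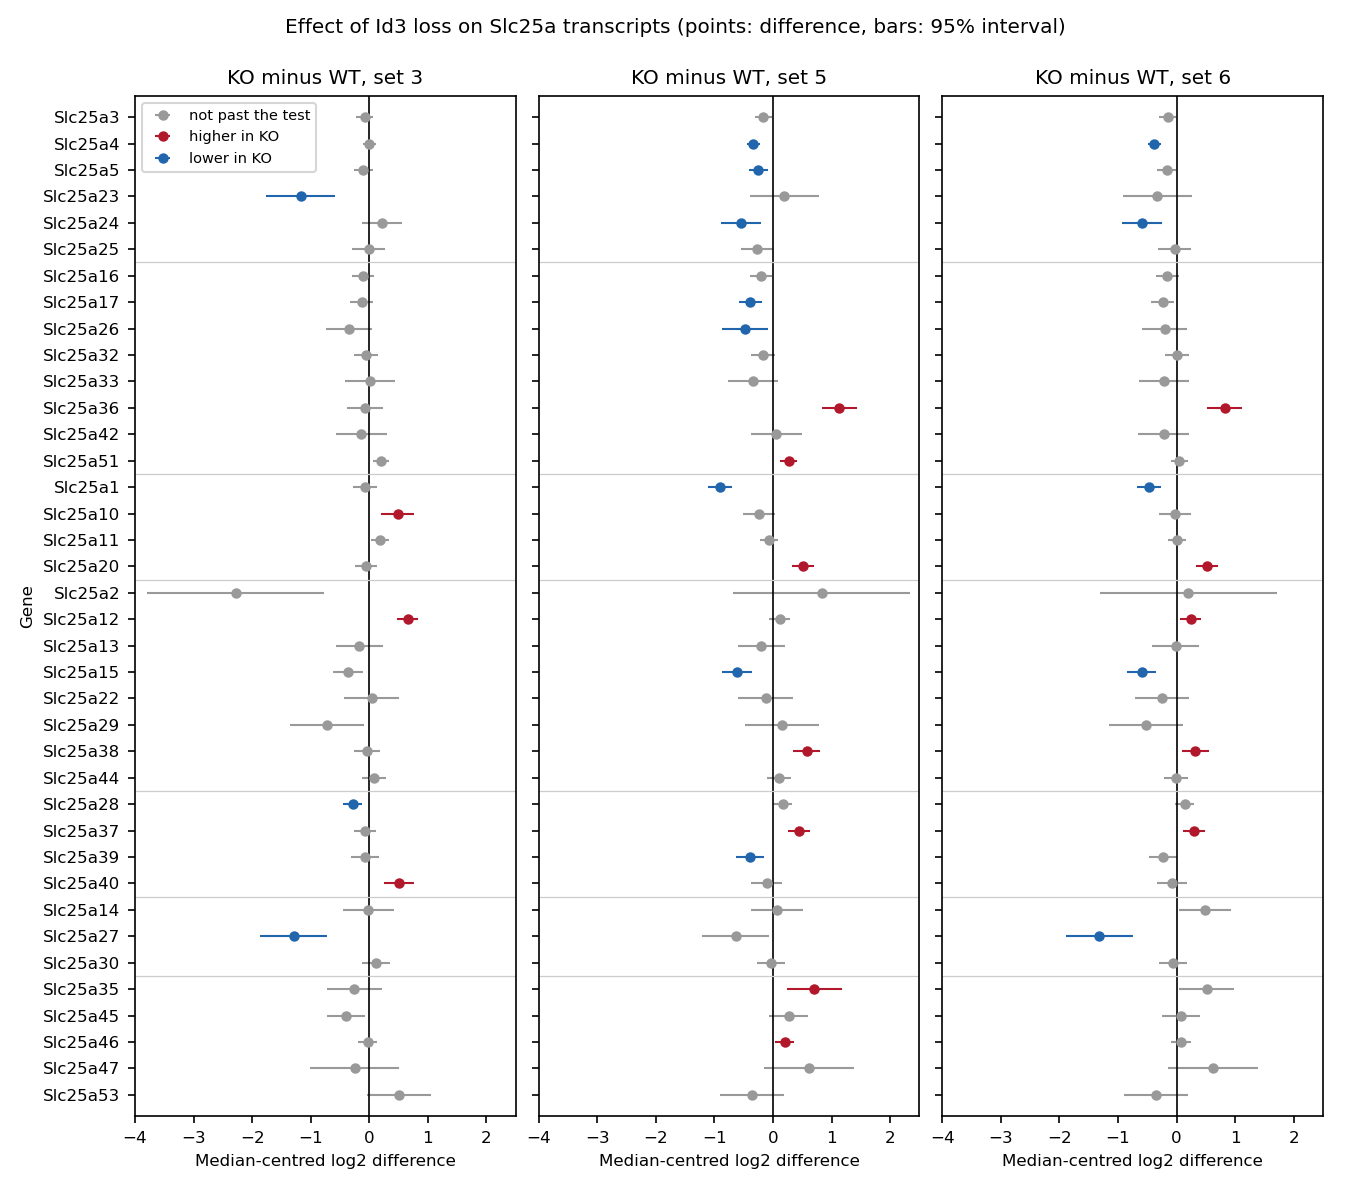
Points are median-centred log2 differences between KO and WT cells (x axis) for each of 38 Slc25a genes (y axis, grouped by substrate), and bars are 95% intervals; red and blue mark genes past the test. In set 3 the lower points past the test are Slc25a23, Slc25a27 and Slc25a28, and in sets 5 and 6 Slc25a36 has the largest rise (1.13 and 0.82).

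Slc25a36 carries pyrimidine nucleotides into mitochondria, where they feed the copying of mitochondrial DNA and RNA. Its WT libraries read 10.99, 10.79 and 11.05 in set 3, 11.11, 11.03 and 11.15 in set 5, and 11.07, 10.77 and 11.09 in set 6. Its KO libraries read 10.67, 10.89 and 10.98 in set 3, 12.89, 12.38 and 12.57 in set 5, and 12.43, 11.92 and 12.29 in set 6. The WT level stayed within 10.77 to 11.15, and every KO library of sets 5 and 6 lay above every WT library, also after centring. The KO-WT difference was -0.07 (SE 0.14) in set 3, where it did not pass, 1.13 (SE 0.14; adjusted p = 1.2e-05; 1.52 as deposited) in set 5 and 0.82 (SE 0.14; adjusted p = 0.000368; 1.23 as deposited) in set 6. The other pyrimidine nucleotide carrier, Slc25a33, had KO-WT differences of 0.01, -0.34 and -0.21 (SE 0.20 each) that did not pass. It fell in sets 5 and 6 against set 3 in both genotypes, with differences of -2.40 (SE 0.17) in WT and -2.69 (SE 0.17) in KO cells.

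Other carriers of cofactors had smaller KO-WT differences. Slc25a51, which imports NAD, rose by 0.27 (SE 0.07; adjusted p = 0.00389; 0.66 as deposited) in set 5. In set 6 it differed by 0.05 (SE 0.07), which did not pass, and by 0.46 as deposited, which did (adjusted p = 2.96e-05).

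Slc25a26 imports S-adenosylmethionine, the methyl donor, and Slc25a17 carries coenzyme A and nucleotides into peroxisomes. Slc25a26 read 6.97, 7.30 and 7.04 in KO and 7.21, 7.29 and 7.08 in WT libraries of set 5. These groups overlapped as deposited and stood apart after centring, with a difference of -0.48 (SE 0.18; adjusted p = 0.04; -0.09 as deposited). That call was lost without any 1 of KO replicates 1 and 3 and WT replicates 1 and 2 of set 5 (adjusted p from 0.0904 to 0.122) and with the 6 libraries of set 5 alone in the model. Slc25a17 differed by -0.39 (SE 0.09; adjusted p = 0.00278) in set 5 and by 0.0022 as deposited. Slc25a32, the folate carrier, fell in sets 5 and 6 against set 3 with differences of -1.86 (SE 0.08) in WT and -1.88 (SE 0.08) in KO cells, and its KO-WT differences of -0.06, -0.17 and 0.00 (SE 0.10) did not pass.

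Slc25a20 exchanges acylcarnitines for carnitine, the step that brings long-chain fatty acids to oxidation in the matrix. It read 9.31, 9.20 and 9.29 in WT and 9.13, 9.25 and 9.19 in KO libraries of set 3. In set 5 the WT libraries read 9.21, 9.27 and 9.35 and the KO libraries 10.13, 10.04 and 10.36, and in set 6 they read 9.45, 9.40 and 9.53 against 10.44, 10.26 and 10.45. KO and WT libraries overlapped in set 3 and stood apart in sets 5 and 6 on both scales. The centred difference was -0.05 (SE 0.09) in set 3, 0.51 (SE 0.09; adjusted p = 0.000219; 0.90 as deposited) in set 5 and 0.51 (SE 0.09; adjusted p = 0.000379; 0.93 as deposited) in set 6. In KO cells it rose by 0.66 (SE 0.08) from set 3 to the later-numbered sets, and in WT cells it differed by 0.09 (SE 0.08).

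Slc25a1 exports citrate, the source of cytosolic acetyl-CoA for lipid synthesis. Its WT libraries read 11.35, 11.24 and 11.41 in set 3, 10.92, 10.86 and 10.89 in set 5 and 11.09, 10.80 and 10.86 in set 6. Its KO libraries read 11.29, 11.17 and 11.25 in set 3, 10.42, 10.48 and 10.25 in set 5 and 11.05, 10.86 and 10.67 in set 6. In set 5 all KO libraries were below all WT libraries on either scale, and in set 6 they were below after centring and overlapped as deposited. The centred difference was -0.08 (SE 0.10) in set 3, -0.90 (SE 0.10; adjusted p = 3.2e-06; -0.51 as deposited) in set 5 and -0.47 (SE 0.10; adjusted p = 0.00123; -0.06 as deposited) in set 6. The malate and succinate carrier Slc25a10 read 9.34, 8.96 and 9.06 in KO and 8.65, 8.89 and 8.44 in WT libraries of set 3, where the groups stood apart by 0.48 (SE 0.13; adjusted p = 0.0255). Without any 1 of KO replicates 1 and 3 and WT replicates 1 and 3 of set 3 that call was lost (adjusted p from 0.05 to 0.148). The oxoglutarate carrier Slc25a11 had centred KO-WT differences of 0.18, -0.07 and 0.01 (SE 0.07) that did not pass, and rose in sets 5 and 6 against set 3 by 0.50 (SE 0.06) in WT and 0.29 (SE 0.06) in KO cells.

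**Figure D3:**
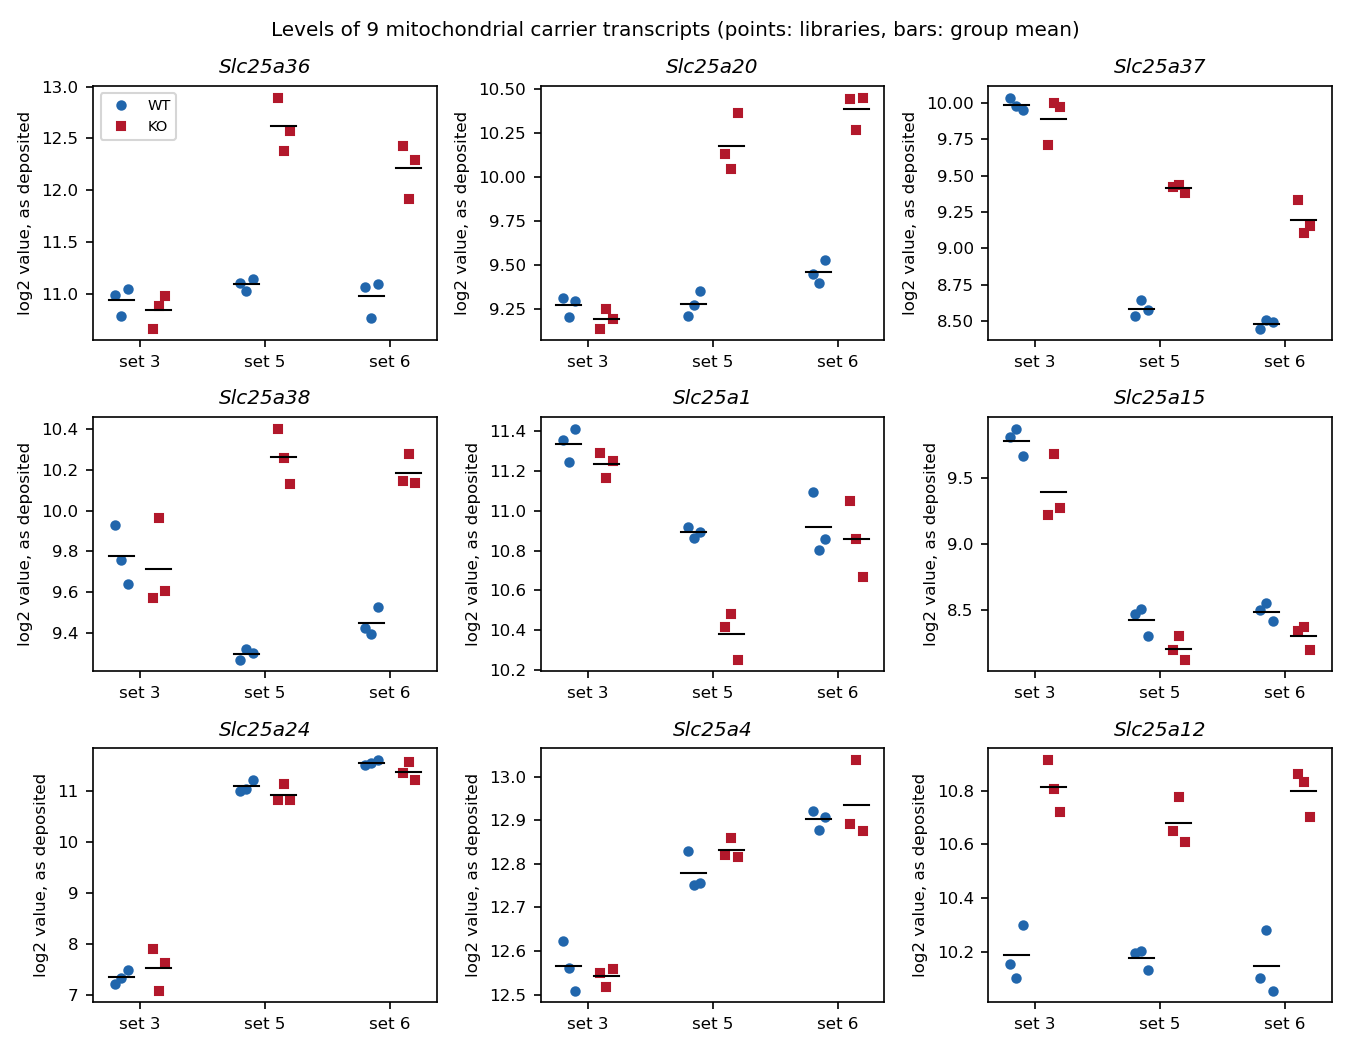
Points are single libraries and bars group means of the log2 value as deposited (y axis, not starting at 0 and scaled to each gene) for 9 carriers in sets 3, 5 and 6 (x axis), WT in blue and KO in red. In sets 5 and 6 the KO libraries of Slc25a36, Slc25a20, Slc25a37 and Slc25a38 all lie above the WT libraries, whereas those of Slc25a4 and Slc25a24 overlap them before centring.

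Among the adenine nucleotide carriers, Slc25a24 and Slc25a4 were lower in KO cells of sets 5 and 6 relative to the median gene, and no member of the group rose on that scale. As deposited Slc25a3 rose in set 5 (0.23; adjusted p = 0.0114), and Slc25a3, Slc25a5 and Slc25a25 rose in set 6 (0.26, 0.24 and 0.38). Slc25a24, a calcium-regulated carrier that exchanges ATP-Mg for phosphate, had the largest change of the family between sets. Its WT libraries read 7.22, 7.34 and 7.49 in set 3, 11.02, 11.05 and 11.22 in set 5 and 11.51, 11.55 and 11.62 in set 6, a rise of 3.97 (SE 0.14; adjusted p = 3.3e-12) over set 3. Its KO libraries read 7.90, 7.08 and 7.64, then 10.82, 11.15 and 10.83, then 11.35, 11.57 and 11.23, a rise of 3.19 (SE 0.14; adjusted p = 1.6e-11). The KO and WT libraries overlapped in every set as deposited. After centring they stood apart in sets 5 and 6, with KO-WT differences of -0.55 (SE 0.16; adjusted p = 0.00944; -0.16 as deposited) and -0.59 (SE 0.16; adjusted p = 0.0087; -0.18 as deposited).

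Slc25a4 encodes ANT1, an exchanger of ADP and ATP. Its WT libraries read 12.83, 12.75 and 12.76 in set 5 and 12.92, 12.88 and 12.91 in set 6, and its KO libraries 12.82, 12.86 and 12.82 in set 5 and 12.89, 13.04 and 12.87 in set 6. The groups overlapped as deposited, where they differed by 0.05 and 0.03. Relative to the library median they stood apart, with -0.34 in set 5 (SE 0.05; adjusted p = 7.6e-05) and -0.38 in set 6 (SE 0.05; adjusted p = 5.3e-05), so the sign depended on the scale. Slc25a5, which encodes ANT2, and Slc25a3, the phosphate carrier, fell between set 3 and the later-numbered sets with differences of -0.92 (SE 0.07) and -0.82 (SE 0.06) in WT cells and of -1.03 (SE 0.07) and -0.90 (SE 0.06) in KO cells. In set 5 the KO-WT difference of Slc25a5 was -0.25 (SE 0.08; adjusted p = 0.0122; 0.14 as deposited), a call lost without KO replicate 3 or WT replicate 1 of that set (adjusted p = 0.0523 and 0.0623 at the lowest and highest).

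Slc25a23 and Slc25a25 are the other measured ATP-Mg and phosphate exchangers. In set 3 Slc25a23 read 6.08, 7.0 and 7.23 in KO and 8.18, 7.37 and 8.34 in WT libraries, with no overlap and a difference of -1.17 (SE 0.28; adjusted p = 0.0122). The call was lost without KO replicate 1 or WT replicate 1 or 3 of set 3 (adjusted p from 0.0581 to 0.0717). In sets 5 and 6 its KO-WT differences were 0.20 and -0.33 (SE 0.28) and did not pass. Slc25a25 rose from set 3 to the later-numbered sets by 1.06 (SE 0.11) in WT and 0.93 (SE 0.11) in KO cells, and its KO-WT differences of -0.01, -0.27 and -0.03 (SE 0.13) did not pass.

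Of the 8 amino acid carriers, Slc25a38 rose and Slc25a15 fell in KO cells of both later-numbered sets. Slc25a38 brings glycine to the matrix for haem synthesis. Its WT libraries read 9.93, 9.76 and 9.64 in set 3, 9.27, 9.32 and 9.30 in set 5 and 9.43, 9.39 and 9.53 in set 6, and its KO libraries 9.57, 9.96 and 9.60, then 10.40, 10.26 and 10.13, then 10.14, 10.27 and 10.13. WT and KO libraries overlapped in set 3 and stood apart on both scales in sets 5 and 6. The centred difference was 0.57 in set 5 (SE 0.11; adjusted p = 0.000386; 0.96 as deposited) and 0.32 in set 6 (SE 0.11; adjusted p = 0.0266; 0.73 as deposited). The set 6 call was lost without KO replicate 2 or WT replicate 1 or 2 of that set (adjusted p from 0.0729 to 0.0892).

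Slc25a15 exchanges ornithine and citrulline, and ornithine is also the substrate for polyamines. It read 9.81, 9.88 and 9.67 in WT and 9.22, 9.68 and 9.27 in KO libraries of set 3, with overlap and a difference of -0.37 (SE 0.12; adjusted p = 0.0594) that passed as deposited (-0.39; adjusted p = 0.0434). In set 5 the WT libraries read 8.47, 8.51 and 8.30 and the KO libraries 8.19, 8.30 and 8.12, and in set 6 they read 8.50, 8.55 and 8.41 against 8.34, 8.37 and 8.20. KO libraries lay below WT libraries after centring in both sets. The differences were -0.61 (SE 0.12; adjusted p = 0.000558; -0.22 as deposited) and -0.60 (SE 0.12; adjusted p = 0.00108; -0.18 as deposited), and neither passed as deposited.

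The aspartate-glutamate carriers Slc25a12 and Slc25a13 belong to the malate-aspartate shuttle, which moves the electrons of cytosolic NADH into mitochondria. Slc25a12 read 10.92, 10.80 and 10.72 in KO and 10.16, 10.10 and 10.30 in WT libraries of set 3, then 10.65, 10.78 and 10.61 against 10.20, 10.20 and 10.13 in set 5, and 10.86, 10.83 and 10.70 against 10.10, 10.28 and 10.05 in set 6. All KO libraries were above the WT libraries of their set on both scales. The centred difference was 0.65 in set 3 (SE 0.08; adjusted p = 0.000123), 0.11 in set 5 (SE 0.08; adjusted p = 0.27; 0.50 as deposited, adjusted p = 6.7e-05) and 0.24 in set 6 (SE 0.08; adjusted p = 0.0305; 0.65 as deposited). The centred call in set 6 was lost without any 1 of KO replicates 1 and 2 and WT replicates 1 and 3 of that set (adjusted p from 0.0797 to 0.114), with library weights and with the 6 libraries of set 6 alone in the model. Slc25a13 fell from set 3 to the later-numbered sets with differences of -1.91 (SE 0.17) in WT and -1.85 (SE 0.17) in KO cells, and its KO-WT differences of -0.17, -0.20 and -0.01 (SE 0.19) did not pass.

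Slc25a2, a second ornithine carrier, was the least certain member. In set 3 it read 1.01, 1.07 and 3.07 in KO and 3.11, 4.62 and 4.36 in WT libraries, and the first 2 KO values are the lowest value of their library, which 149 to 350 genes share in each library. The test of its set 3 difference had adjusted p = 0.0518 (0.0475 as deposited). Fitted differences of Slc25a2 that involve KO cells of set 3 are set by that lowest value and are neither measured folds nor bounds. The glutamate carrier Slc25a22, the basic amino acid carrier Slc25a29 and the branched-chain amino acid carrier Slc25a44 had KO-WT differences between -0.72 and 0.16 that did not pass on centred values.

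Iron enters mitochondria through the mitoferrins, Slc25a37 and Slc25a28, and glutathione through Slc25a39 and its paralogue Slc25a40. Slc25a37 read 10.04, 9.98 and 9.95 in WT and 9.71, 10.00 and 9.97 in KO libraries of set 3. In set 5 the WT libraries read 8.54, 8.64 and 8.58 and the KO libraries 9.42, 9.44 and 9.38, and in set 6 they read 8.45, 8.51 and 8.49 against 9.33, 9.11 and 9.15. The groups overlapped in set 3 and stood apart in sets 5 and 6 on both scales, by 0.44 (SE 0.09; adjusted p = 0.00074; 0.83 as deposited) and 0.30 (SE 0.09; adjusted p = 0.0143; 0.71 as deposited). Without KO replicate 1 of set 6 the latter had adjusted p = 0.0758, and it also missed the threshold with the 6 libraries of set 6 alone in the model. Slc25a37 fell from set 3 in both genotypes, with differences of -1.46 (SE 0.08) in WT and -1.02 (SE 0.08) in KO cells. The 4 haemoglobin genes are markers of the red cell lineage, in which Slc25a37 and Slc25a38 are best known. As deposited they summed to 4.20 to 5.23 in KO and 5.89 to 6.15 in WT libraries of set 5. In set 6 they summed to 5.60 to 6.11 and 5.64 to 7.08.

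Slc25a28 read 9.56, 9.67 and 9.53 in KO and 9.96, 9.94 and 9.80 in WT libraries of set 3, without overlap, a difference of -0.29 (SE 0.08; adjusted p = 0.0233). Leaving out any 1 of KO replicates 1 and 3 and WT replicates 1 and 2 of set 3 ended that call (adjusted p from 0.0778 to 0.0994). Its differences of 0.16 and 0.14 (SE 0.08) in sets 5 and 6 passed as deposited (0.55 in each set; adjusted p = 1.3e-05 and 1.6e-05) and not after centring. Slc25a40 read 9.21, 9.56 and 9.41 in KO and 8.85, 9.12 and 8.76 in WT libraries of set 3, without overlap, a difference of 0.51 (SE 0.12; adjusted p = 0.0132) that was lost without WT replicate 1 or 3 of set 3 (adjusted p = 0.0553 and 0.0591 at the lowest and highest). Slc25a39 differed by -0.40 (SE 0.11; adjusted p = 0.00838; -0.01 as deposited) in set 5, a call lost without KO replicate 3 of that set (adjusted p = 0.0564).

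Of the uncoupling protein relatives, Slc25a27, which encodes UCP4, was lower in KO cells. It read 4.48, 5.48 and 4.49 in KO and 6.05, 6.07 and 6.29 in WT libraries of set 3, 6.08, 6.35 and 6.31 against 6.35, 6.46 and 6.67 in set 5, and 5.25, 5.48 and 5.90 against 6.46, 6.09 and 6.80 in set 6. KO libraries were below WT libraries after centring in every set, and 6.35 was both the highest KO and the lowest WT value of set 5 at 2 decimals. The centred difference was -1.29 (SE 0.27; adjusted p = 0.00573) in set 3, -0.64 (SE 0.27; adjusted p = 0.0631) in set 5 and -1.32 (SE 0.27; adjusted p = 0.00136; -0.91 as deposited) in set 6. With the 6 libraries of set 3 alone in the model the set 3 difference did not pass. Slc25a14 and Slc25a30 passed in no set on centred values.

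Slc25a35, a carrier of unassigned substrate, read 6.92, 7.23 and 7.19 in KO and 5.84, 6.28 and 5.92 in WT libraries of set 5, without overlap, a difference of 0.71 (SE 0.22; adjusted p = 0.0144; 1.10 as deposited). Without WT replicate 1 of set 5 adjusted p was 0.0602. In set 6 it read 6.85, 7.34 and 7.38 against 6.19, 6.49 and 6.10, groups that overlapped after centring, and the centred difference of 0.52 (SE 0.22) did not pass. Slc25a46, an outer membrane protein involved in mitochondrial shape, differed by 0.20 (SE 0.08; adjusted p = 0.0436) in set 5, and the call was lost without any 1 of 5 of the 6 libraries of that set, KO replicate 2 being the exception (adjusted p from 0.0540 to 0.169), after quantile normalization and with that set alone in the model. Slc25a45 rose from set 3 by 1.60 (SE 0.13) in WT and 2.17 (SE 0.13) in KO cells and passed in no KO-WT comparison on centred values.

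**Figure D4:**
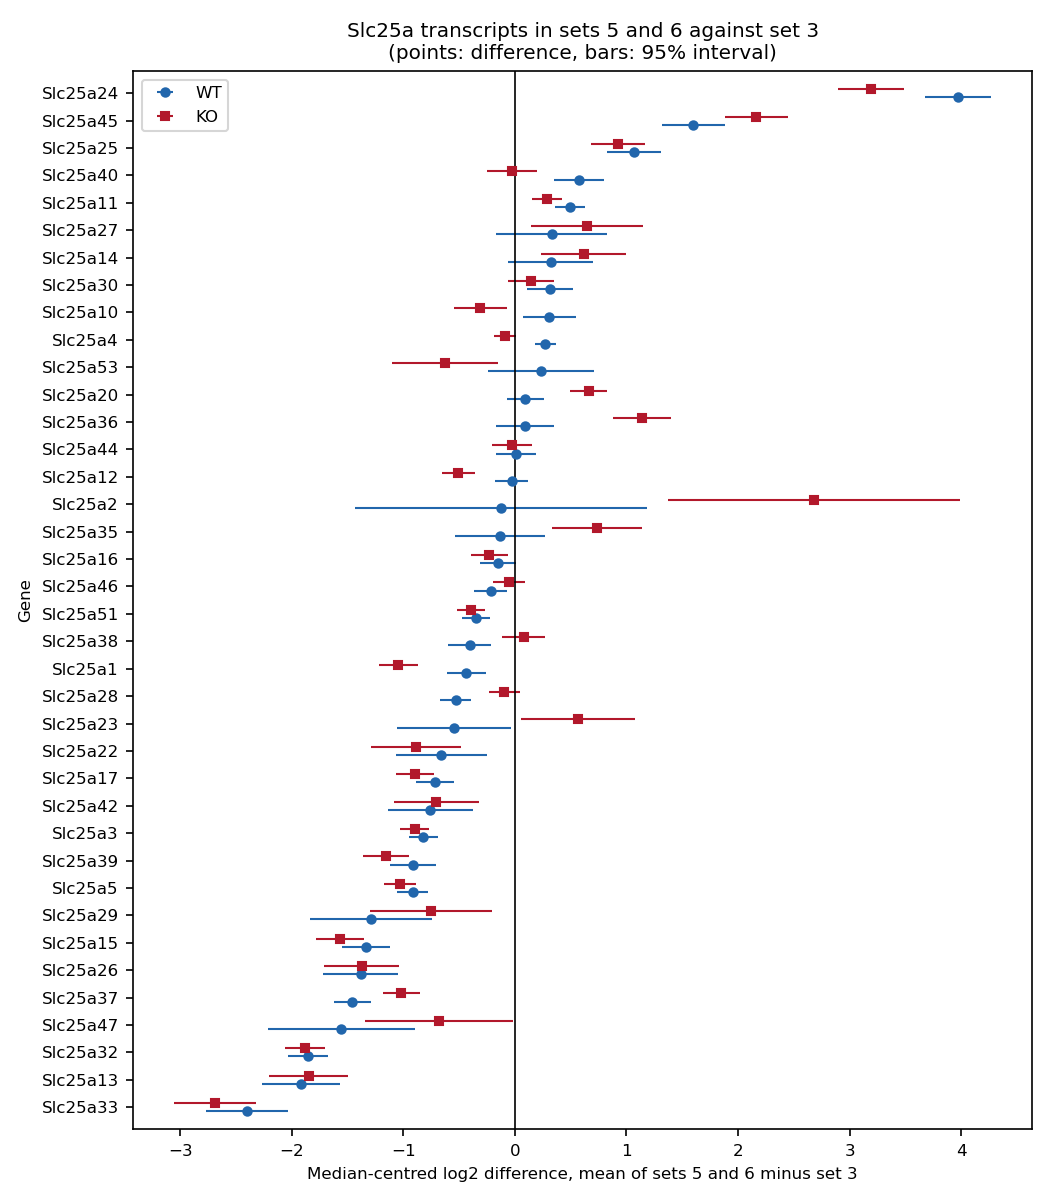
Points are median-centred log2 differences between the mean of sets 5 and 6 and set 3 (x axis) for each of 38 Slc25a genes (y axis, sorted by the WT value), WT in blue and KO in red, with 95% intervals. Slc25a24 is highest and Slc25a33 lowest in both genotypes; Slc25a45 is next in WT (1.60), and in KO cells (2.17) it lies below Slc25a2 (2.68), whose KO values in set 3 include the lowest value of 2 libraries, while the intervals of Slc25a36, Slc25a20 and Slc25a1 are apart.

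The KO-WT difference itself changed between set 3 and the mean of sets 5 and 6 for 16 members, 9 higher and 7 lower (41.0%, beside 38.2% of all genes by limma's interaction contrast, 19.6% higher and 18.5% lower). As deposited 21 members were higher and none lower (55.5% of all genes, 49.1% higher and 6.39% lower). Of the 9 that were higher on both scales, Slc25a36 was higher by 1.05 (SE 0.17; adjusted p = 0.000295) and Slc25a20 by 0.57 (SE 0.11; adjusted p = 0.000924). Slc25a23 was higher by 1.11 (SE 0.34), Slc25a35 by 0.87 (SE 0.27) and Slc25a45 by 0.57 (SE 0.19), with larger errors (adjusted p = 0.0179, 0.0191 and 0.0269). Slc25a38 (0.48, SE 0.13), Slc25a37 (0.44, SE 0.11) and Slc25a28 (0.44, SE 0.09) also passed. None of the 7 lower calls, on Slc25a1, Slc25a4, Slc25a10, Slc25a12, Slc25a24, Slc25a40 and Slc25a53, was kept as deposited. Without KO replicate 1 of set 3 the count was 11, and against a minimum fold of 1.2 Slc25a2, Slc25a20, Slc25a36 and Slc25a1 were left (17.0% of all genes).

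Fewer members differed between sets 5 and 6 than between set 3 and these sets. In WT cells no member passed (limma, 4 at unadjusted p under 0.05), beside 2.06% of all genes called, 1.49% higher and 0.566% lower. With the replicate number of each genotype as a block, which pairs sets 5 and 6, 1 member was lower (3.39% of all genes called). In KO cells 5 of the 39 members passed (7.52% of all genes called, 3.87% higher and 3.64% lower). Slc25a1 was higher by 0.38 (SE 0.10). Slc25a23, Slc25a29, Slc25a36 and Slc25a37 were lower, with centred differences of -1.33, -1.25, -0.50 and -0.31. As deposited 3 were higher and 2 lower (12.0% of all genes, 9.93% higher and 2.03% lower), and Slc25a36 and Slc25a37 no longer passed (adjusted p = 0.0755 and 0.123). Without KO replicate 3 of set 5 none of the 5 passed, and against a minimum fold of 1.2 none did (0.367% of all genes). No member passed the test of a change in the KO-WT difference between sets 5 and 6 (limma, 0 members and 0% of all genes, 2 members at unadjusted p under 0.05), and the count was also 0 with that block. For Slc25a36 the change was -0.31, with a 95% interval from -0.74 to 0.11.

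Of 12 lists of genes that work beside the carriers, 11 had a centred median KO-WT difference below 0 in set 5 and 10 in set 6. As deposited 6 and 3 of the 12 medians lay below 0, where the median of all genes differed by 0.39 and 0.41. Among all genes 24.9% were called higher and 24.7% lower in set 5 and 18.8% and 18.5% in set 6 on centred values, and 50.1% and 8.08%, and 53.9% and 4.59%, as deposited. The counts of the lists below stand beside these shares. The centred medians ran from -0.91 (outer membrane channels) to 0.13 (family members under other names) in set 5 and from -0.67 to 0.18 in set 6, both ends being the same lists. Family members under other names split: Ucp2, an uncoupling protein gene, rose by 1.31 (SE 0.09; 1.70 as deposited) in set 5 and 1.57 (SE 0.09; 1.98 as deposited) in set 6, and Mtch2, an outer membrane insertase, fell on centred values with -0.57 and -0.24 (SE 0.07), which were -0.18 and 0.17 as deposited, the latter past the test as a rise. Of 10 other inner membrane carriers, 5 fell and none rose in set 5 and in set 6, with 2 higher and 2 lower as deposited in each. In set 5 Sfxn1, the serine carrier, fell by 1.0 (SE 0.10) and Abcb10 fell by 1.25 (SE 0.16), and both also fell as deposited. Of the 3 outer membrane channel genes, Vdac1 differed by -1.18 and -0.97 (SE 0.14) and Vdac3 by -0.91 and -0.67 (SE 0.08) in sets 5 and 6, and both also fell as deposited.

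Of 15 genes for the import of carrier proteins, 11 fell and Timm29 rose (0.42, SE 0.07) in set 5, and 8 fell and 1 rose in set 6. As deposited 3 rose and 6 fell in set 5, and 3 rose and 2 fell in set 6. Timm8b and Tomm5 had centred differences of -0.75 and -0.66 (SE 0.09 each) in set 5 and also fell there as deposited. Of 14 citrate cycle and citrate export enzymes, 10 fell and none rose in set 5 (2 rose and 4 fell as deposited), and 10 fell and 1 rose in set 6 (3 and 1 as deposited). In set 5 the centred difference of citrate synthase, Cs, was -0.48 (SE 0.06; -0.10 as deposited, where it did not pass) and that of fumarase, Fh1, -1.16 (SE 0.14; -0.77 as deposited).

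Partner lists of the other carriers gave mixed counts on centred values. Of 7 malate-aspartate shuttle and glutamate enzymes, 4 fell and 1 rose in set 5 and 3 fell in set 6, while as deposited 3 rose in each set and 1 fell in set 5. Of 7 glutathione enzymes 5 fell in each set, among them in set 5 Gclm (-1.02, SE 0.13; -0.63 as deposited) and Gsr (-0.61, SE 0.06; -0.22 as deposited), and as deposited 2 rose and 2 fell in set 5 and 2 rose and 1 fell in set 6. Of 6 folate enzymes, 3 fell and 1 rose in set 5, where Shmt2 differed by -0.74 (SE 0.10), and 1 fell in set 6; as deposited 1 rose and 2 fell in set 5 and 3 rose in set 6. Of 11 haem and iron-sulfur enzymes, 6 fell and 1 rose in set 5 and 4 fell and 1 rose in set 6, while 5 rose and 1 fell, and 5 rose and none fell, as deposited. Of 10 carnitine shuttle and fatty acid oxidation genes, 3 fell and 1 rose in set 5 and 2 fell in set 6, and 4 and 5 rose as deposited. Of 6 ornithine and proline enzymes, 4 fell in set 5 and 1 in set 6, while 2 and 4 rose and none fell as deposited. Of 9 genes for mitochondrial DNA upkeep and nucleotide supply, 2 rose and 3 fell in set 5 and 3 rose and none fell in set 6, while 4 and 6 rose and none fell as deposited. Those that rose included Polg, the mitochondrial DNA polymerase, by 1.21 and 0.71 (SE 0.13), and Tk2, which phosphorylates pyrimidine nucleosides in mitochondria, by 0.87 and 0.60 (SE 0.13). In set 3 Sfxn3 (-0.62, SE 0.18) fell and Acly (0.31, SE 0.09), the enzyme that splits exported citrate, rose, the latter not as deposited, and no gene of the other 10 lists passed on centred values. Among all genes 7.29% were called higher and 3.28% lower in set 3 on that scale.

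In the authors' deposited table, members with an adjusted p under 0.05 were Slc25a12 (higher) and Slc25a27 (lower) for set 3, beside 3.91% of all genes. For set 5 the authors' deposited table had 12 higher and Slc25a1 lower (37.8% of all genes), and for set 6 it had 11 higher and Slc25a27 lower (35.1%). Their contrast over both sets had 14 higher and none lower (45.6%). These fold changes are those of the values as deposited, such as 1.52 for Slc25a36 in set 5. They therefore include the shifts of 0.39 in set 5 and 0.41 in set 6. The authors' deposited table called no member between sets 6 and 5 in KO cells (0.606% of all genes) or WT cells (0.693%).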

How the data were processed

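The study measured polyadenylated RNA in 18 libraries, prepared with a directional kit, per the labels' protocols. Salmon 1.9.0, edgeR, limma and GRCm39 are named in the submitters' processing notes, without their roles. The authors deposited log2 values per gene, and, per the file headers, a second table of contrasts with log2 fold changes, a test score and p-values, raw and adjusted. How the log2 values were normalized is not stated in any source used. Within groups 97.0 to 98.4% of the sorted deposited log2 values were identical, so the libraries of a group share 1 distribution, which can narrow the spread and lower p-values.

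Values were centred on each library's median and tested with limma 3.58.1 in R 4.3.3 (1 model of 6 group means, variance trend, 12 residual degrees of freedom, Benjamini-Hochberg adjustment over 12547 genes, threshold 0.05). The limma step was run on simulated data with independent noise. Those data had no shared distribution within a group and no shift of the median, so that run does not bear on the effect of either. The members and lists were chosen with earlier results of these data known. In each KO-WT comparison, values in every library are given for up to 4 members with the largest rise and 4 with the largest fall among those past the test without overlap, and, in each substrate group, for the called member with the smallest adjusted p in set 5 or 6. In partner lists up to 2 called genes per direction are named. Slc25a2 was given in every library of set 3 after its values were seen, and so were sets of a member in which it did not pass. Same-numbered KO and WT libraries of a set deviated from their group means with r from -0.08 to 0.18 and were not treated as paired. Same-numbered libraries of sets 5 and 6 did so with r from 0.22 to 0.34 in KO and from 0.12 to 0.16 in WT cells, a pairing seen in the data and not in the labels. The values of 1 member are not reported here, in the text or the figures, though it is in the counts. E-boxes were counted in the 250 bases before RefSeq starts.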

Additional observations from a re-analysis of the deposited data

Results flagged for a closer look

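The KO-WT difference on centred values changed between set 3 and the mean of sets 5 and 6 for 16 members, by limma's test of that change itself, with n = 3 libraries in each group. It was higher in the later-numbered sets for Slc25a23 (1.11), Slc25a36 (1.05), Slc25a35 (0.87), Slc25a45 (0.57), Slc25a20 (0.57), Slc25a38 (0.48), Slc25a37 (0.44) and Slc25a28 (0.44), and for Slc25a2. It was lower for Slc25a53 (-0.86), Slc25a24 (-0.78), Slc25a10 (-0.62), Slc25a1 (-0.61), Slc25a40 (-0.60), Slc25a12 (-0.48) and Slc25a4 (-0.36). The fitted 2.80 of Slc25a2 is set by 2 KO libraries of set 3 at the lowest value of their library (1.01 and 1.07), so it is neither a measured size nor a bound. Leaving out KO replicate 1, KO replicate 2 or WT replicate 2 of set 3 ended its call (adjusted p from 0.0514 to 0.0582). The call on Slc25a23 ended without set 3's KO replicate 1, WT replicate 1 or WT replicate 3 (0.0502 to 0.0607). That on Slc25a35 ended without any of these 3 or KO replicate 3 (0.0509 to 0.0561), and that on Slc25a45 without KO replicate 1 or WT replicate 3 (0.0879 to 0.0918). The call on Slc25a53 was lost without 14 of the 18 libraries taken in turn, the exceptions being KO replicate 2 of set 3, KO replicate 3 of set 5, KO replicate 2 of set 6 and WT replicate 1 of set 5 (adjusted p from 0.0509 to 0.139), after quantile normalization and without the variance trend. As deposited each of the 16 is higher by 0.43, and none of the 7 lower values passed.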

How the results depend on the processing

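Counts of members past the test were 6, 15 and 11 for KO against WT in sets 3, 5 and 6, 16 for the change between sets, 28 and 31 for the later-numbered sets against set 3 in WT and KO cells, and 0 and 5 for set 6 against 5 in WT and KO cells. As deposited the set 6 count was 24. A minimum fold of 1.2 gave 2, 5, 4 and 4 for the 3 sets and the change between sets, and 0 for KO set 6 against 5. The compared groups alone gave 1 in set 3 (2.92% of all genes). For set 6 against 5 they gave 2 in WT (3.44%) and 1 in KO cells (1.53%). Library weights gave 2 for WT set 6 against 5 (8.07%). Leaving out 1 library gave 3 to 9 in set 3 (3 without KO replicate 1 or WT replicate 1 or 3, 9 without KO replicate 2), 12 to 17 in set 5, 9 to 12 in set 6, 11 to 16 for the change between sets, 26 to 29 and 26 to 32 for the later-numbered sets in WT and KO cells, and 0 to 0 and 0 to 5 for set 6 against 5. With the replicate number as a block the counts were 8, 16, 14, 17, 29, 32, 0 and 6. The shares of all genes called were then 12.6, 51.2, 39.4, 40.9, 72.6, 75.3, 2.70 and 10.9%. The block within each genotype was chosen after seeing the data. It gave 1 for WT and 6 for KO set 6 against 5 (3.39% and 11.2% of all genes). The change of the KO-WT difference between sets 5 and 6 gave 0 members under each of these alternatives (12 libraries of sets 5 and 6 left out in turn) and that block, all added for it after seeing the data. Quantile normalization, robust moderation, no variance trend, 1 added on the linear scale and a filter at a mean of log2 6 (10056 genes, 35 members) kept every count within 1.5 times. Requiring log2 2 in at least 3 libraries left all 12547 genes.

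The sign turned on the deposited values, which add a constant, for Slc25a5 (0.14) and Slc25a17 (0.0022) in set 5, Slc25a4 in sets 5 (0.054) and 6 (0.032) and in the change between sets (0.065), and, in KO cells of the later-numbered sets against set 3, Slc25a10 (0.12), Slc25a51 (0.040) and Slc25a16 (0.20; adjusted p = 0.0273). Over the 112 called member values, 2071 alternatives kept direction and call, 190 kept direction and lost the call, and 8 turned. Depth is unknown, so the precision of low members such as Slc25a2, Slc25a27 and Slc25a29 cannot be separated from their spread.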
